A study of Mus musculus with 26 samples.

Results

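The transcription regulators Spi1, Cebpa, Cebpb, Cebpe, Gfi1, Gata1, Gata2, Meis1 and Hoxa9 and the receptor kinase gene Flt3 specify stem cells and the myeloid, erythroid and mast cell lineages, and they were followed here as a check of alternative lineage programmes in cultured mouse pro-B cells. These 10 genes were chosen by name, all 10 were listed in both expression tables, and the tables together listed 21277 genes, 17846 of them in both. The cultures were grown from B220+ bone marrow cells of C57/Bl6 mice for 7 days with IL7 and SCF, the ligand of the receptor Kit. The study addresses what loss of Brg1 does to these cells, Brg1 being the ATPase of the SWI/SNF chromatin remodelling complexes and the product of Smarca4. In the deletion experiment, Brg1F/F x ER-Cre cells (2 libraries) were set against Brg1+/+ x ER-Cre cells (2 libraries), and both received 0.3 µM tamoxifen for the last 60 hours, so that the Cre and the drug were common to both groups. In the knockdown experiment, Rag1-/- cells, which cannot assemble antigen receptor genes, carried either a Brg1 shRNA (3 libraries) or a control shRNA (3 libraries). All 6 of these cultures were infected with retrovirus on days 3 and 4 and enriched on hCD25 beads for infected cells. The age of the mice and the number of mice behind a library are not given in the sources used here, so p-values measure the spread between libraries, which may be technical.

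PU.1, the product of Spi1, is an ETS factor whose high levels favour macrophages and granulocytes and whose lower levels are needed for early B cells. The C/EBP factors switch on myeloid genes and can turn B lineage cells into macrophages when forced on, while Gfi1, a repressor, favours granulocytes and B cells. GATA factors direct erythroid, megakaryocyte, mast cell and eosinophil fates, Meis1 and Hoxa9 act together in stem and progenitor cells, and the Flt3 receptor marks multipotent and early lymphoid progenitors and is shut off as cells commit to the B lineage.

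The deposited tables hold 1 mean per group and gene, in normalized reads, that is reads divided by the size factor of each library. These values could be split into whole reads per library for all 10 genes on deletion and for 7 of them on knockdown. Recovered libraries carry no replicate number, and they are called the deeper and the shallower library of a group, or the deepest, the middle and the shallowest. Their totals lay between 8794529 and 11573378 reads on deletion and between 5201377 and 11050891 on knockdown. Smarca4 had authors' means of 6067 normalized reads after deletion and 17898 in controls (adjusted p = 0.0008, the authors' deposited table), and of 6743 with the Brg1 shRNA and 13340 with the control shRNA (adjusted p = 0.0472, the authors' deposited table). All 10 B lineage markers were listed in both tables, with summed means of 78091 normalized reads after deletion against 51791 in controls and of 49380 with the Brg1 shRNA against 42460 with the control shRNA. The highest of them, Cd79b of the B cell receptor complex, was the 1 called on deletion, at authors' means of 20542 after deletion and 8045 in controls (adjusted p = 0.0106, the authors' deposited table). Its partner Cd79a came next, at authors' means of 16583 after deletion and 9055 in controls (adjusted p = 1, the authors' deposited table). On knockdown no B lineage marker was called. Over all genes, 1.47% were called on deletion and 0.218% on knockdown.

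Spi1 was the most abundant of the 10 genes per length in each of the 4 groups, and Gfi1 came next. In TPM, reads per length scaled to a common sum over the listed genes, Spi1 stood at 116 in Brg1-deleted cells and 73.6 in their controls, and at 51.0 with the Brg1 shRNA and 51.7 with the control shRNA. In Brg1-deleted cells that level lay at the 92.4 percentile of listed genes. Gfi1 had 37.7 TPM in Brg1-deleted cells and 26.9 TPM in controls, against 13.8 TPM with the Brg1 shRNA and 14.0 TPM with the control shRNA. The other 8 genes were low, none above 8.39 TPM after deletion, 14.4 TPM in its controls, 1.53 TPM with the Brg1 shRNA and 0.900 TPM with the control shRNA. Hoxa9 was the lowest in each group, with 0.198 TPM after deletion, 0.210 TPM in controls, 0.0679 TPM with the Brg1 shRNA and 0.0951 TPM with the control shRNA.

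**Figure D1:**
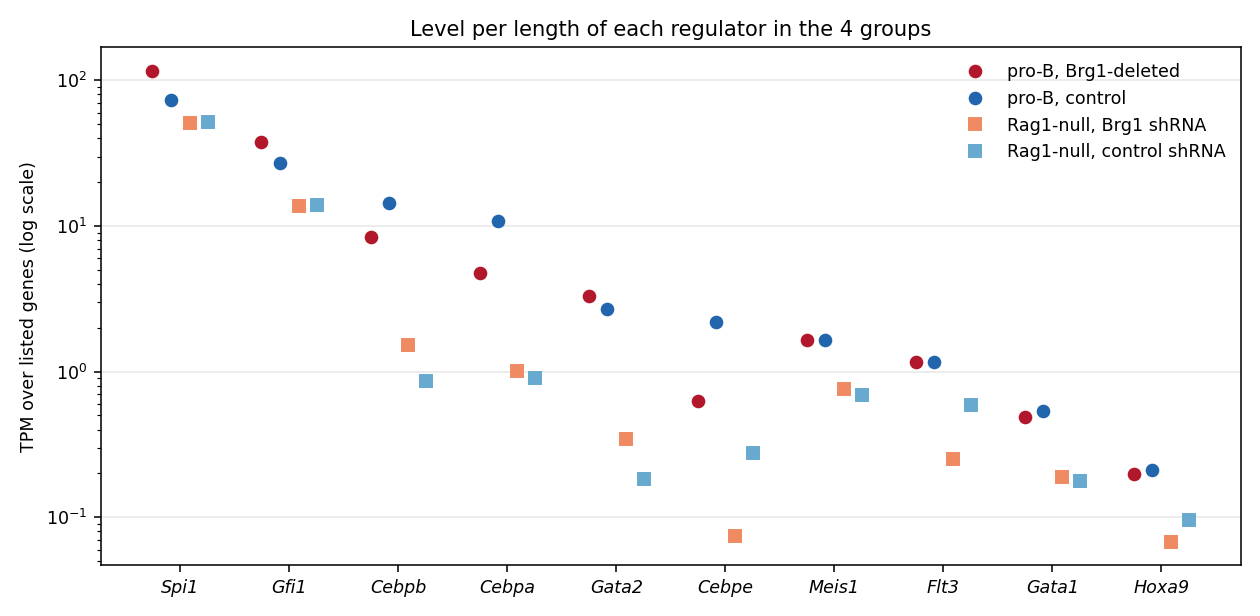
Level of each regulator in TPM over the listed genes on a log axis, computed from the authors' mean of each group, with circles for the deletion experiment and squares for the knockdown. Spi1 and Gfi1 stand above the other 8 genes in every group, and Cebpa, Cebpb, Cebpe and Gata2 are the genes with the widest gap between the controls of the experiments.

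Within this order, many neighbours were not separated. The libraries of Hoxa9 overlapped those of the gene above it in every group but the controls of the deletion experiment, so its last place is not fixed elsewhere. In controls of the deletion experiment, the 2 libraries gave Cebpb 19.4 and 89.2 normalized reads per kilobase and Cebpa 30.4 and 50.9, so that their order is not fixed. The same overlap held for 4 of the 9 pairs of neighbours in controls and for 5 of 9 in Brg1-deleted cells. Spi1 and Gfi1 were apart in both groups, with 279 to 543 normalized reads per kilobase for Spi1 against 58.3 to 209 for Gfi1 after deletion, and 191 to 363 for Spi1 against 54.0 to 149 for Gfi1 in controls. On knockdown, all 5 pairs of neighbours that could be compared with the Brg1 shRNA and all 7 with the control shRNA overlapped.

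Each of the 10 genes had a lower level in Rag1-null cells with the control shRNA than in the control pro-B cells of the deletion experiment. The gap was widest for Cebpb, with 0.858 TPM in Rag1-null control cells against 14.4 TPM in pro-B controls, for Gata2, with 0.183 TPM in Rag1-null against 2.71 TPM in pro-B controls, for Cebpa, with 0.900 TPM in Rag1-null against 10.8 TPM in pro-B controls, and for Cebpe, with 0.274 TPM in Rag1-null against 2.21 TPM in pro-B controls. It was smallest for Spi1, with a log2 difference of -0.51. The median log2 difference of the 10 genes was -1.43, against -0.16 for the 17846 genes in both tables, of which 67.3% were lower in Rag1-null controls. Summed macrophage and monocyte markers stood at 149 normalized reads in Rag1-null control cells against 1258 in pro-B controls. Mast and basophil markers summed to 92.3 over 6 listed genes in Rag1-null against 509 over 8 listed genes in pro-B controls. T and NK markers went the other way, at 282 over 6 listed genes in Rag1-null against 250 over 9 in pro-B controls. These groups differ in genotype, infection, enrichment, tamoxifen and the table they were normalized in, which cannot be told apart here, and no test was made between them. In such bulk libraries, fewer cells of a type and less RNA per cell cannot be told apart.

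Brg1 deletion changed none of the 10 regulators at the threshold of 0.05 on adjusted p-values in the authors' deposited table, where 1.47% of 19404 genes were called, and at an unadjusted p of 0.05 it also counted 0 of 10, against 9.52% of all genes. Spi1 and Gfi1 had higher means in Brg1-deleted cells, the 3 C/EBP genes had lower means, and the means of the others differed little. The median log2 fold change of the 10 was -0.14, with 3 above 0 and 7 below, against -0.0014 for all genes. limma on the recovered reads gave adjusted p-values from 0.297 to 0.925 for the 10 genes, with 1 of them, Cebpa, under an unadjusted p of 0.05. That test called 0 of 16837 genes in all, with 2816 (16.7%) under an unadjusted p of 0.05.

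Spi1 (ENSMUSG00000002111, mm10 chromosome 2, 91082390 to 91115756) had 1464 and 752 normalized reads in the deeper and the shallower Brg1-deleted library, against 516 and 978 in the deeper and the shallower control library. The groups overlap, since the shallower Brg1-deleted library lies below the shallower control library. The authors' means of 1108 after deletion and 747 in controls give a log2 fold change of 0.57 (adjusted p = 1, the authors' deposited table). limma gave 0.56 ± 0.44 (SE) on the log2 scale with an adjusted p of 0.582.

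Cebpa (ENSMUSG00000034957, chromosome 7, 35119293 to 35121926), which encodes C/EBPα, a factor needed to form granulocyte and monocyte progenitors, had 63.1 and 25.6 normalized reads in the Brg1-deleted libraries, deeper first, against 80.0 and 134 in the control libraries. Both Brg1-deleted libraries lay below both controls. The reads behind these values were 73 and 22 in the Brg1-deleted libraries and 82 and 134 in the controls. The authors' deposited table gives a log2 fold change of -1.27 with a p of 0.0716 and an adjusted p of 0.769, and limma gave -1.35 ± 0.53 (SE) with an adjusted p of 0.297.

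Cebpe (ENSMUSG00000052435, chromosome 14, 54710363 to 54712174), whose product acts late in granulocytes, was separated in the same direction but rests on few reads, 1 and 4 in the Brg1-deleted libraries against 16 and 5 in the controls. These reads make 0.864 and 4.65 normalized reads after deletion and 15.6 and 5.00 in controls, so the nearest libraries of the groups differ by 1 read. Its log2 fold change was -1.90 (adjusted p = 1, the authors' deposited table).

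Cebpb (ENSMUSG00000056501, chromosome 2, 167688915 to 167690418), which encodes C/EBPβ of macrophages and stress responses, had 77.8 and 11.6 normalized reads in the Brg1-deleted libraries and 29.3 and 134 in the controls. The groups overlap, and the libraries of a group differed 6.69-fold after deletion and 4.58-fold in controls, more than the 1.83-fold difference of the means. The authors' deposited table gives an adjusted p of 1. The gene lies opposite to Tmem189, which had authors' means of 500 after deletion and 486 in controls, and whether the counting used strand is not given in the sources used here.

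Complete separation of the groups, as in Cebpa and Cebpe, was met in 2 of the 10 genes, both lower after deletion, whereas 48.1% of the 16837 genes with 1 solution and a mean of at least 1 were separated in either direction. The share among the regulators was thus not above that of all genes.

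**Figure D2:**
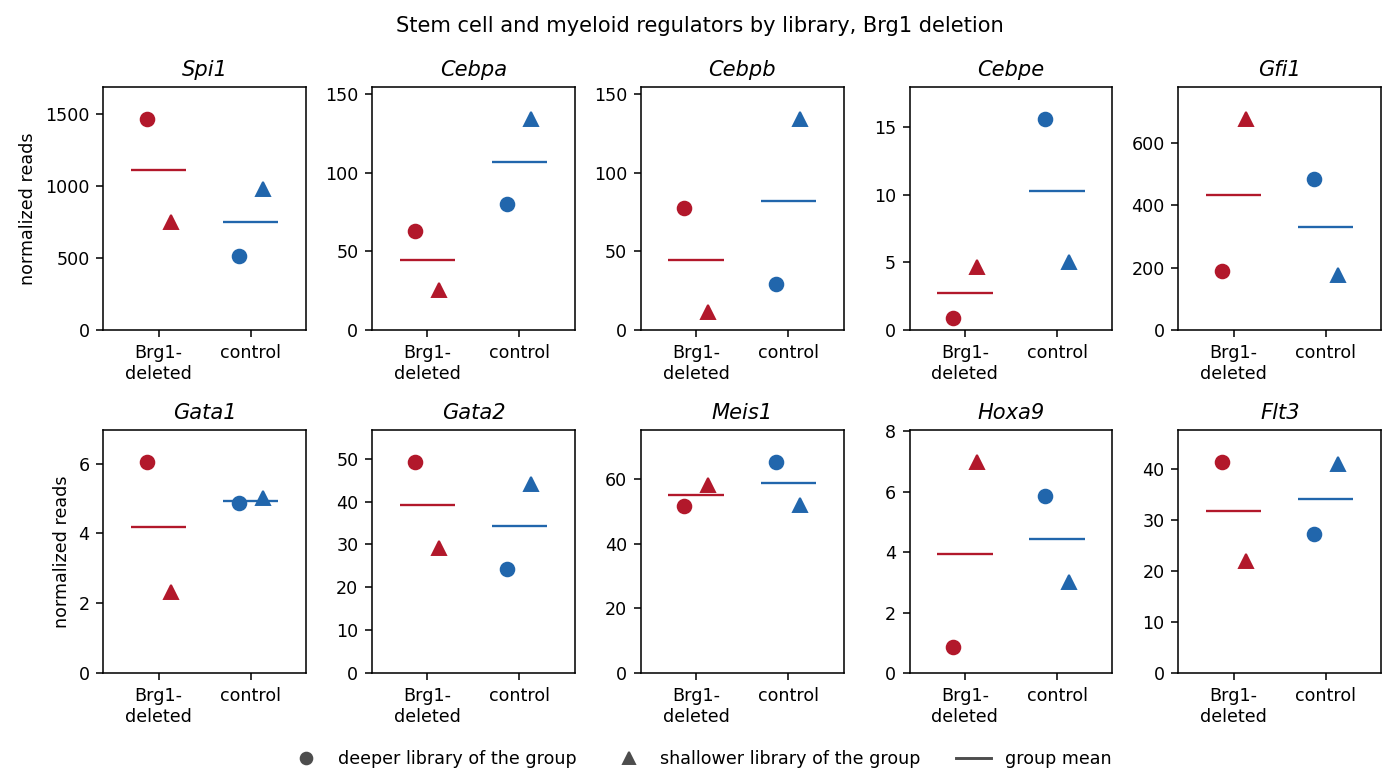
Normalized reads of each regulator in the 2 Brg1-deleted (red) and 2 control (blue) libraries, with the group mean as a line and each axis starting at 0. Cebpa and Cebpe are the genes in which both red points lie below both blue points, while the libraries of a group spread widely in Spi1, Cebpb and Gfi1.

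Gfi1 (ENSMUSG00000029275, chromosome 5, 107716657 to 107726036) had 189 and 677 normalized reads in the Brg1-deleted libraries, deeper first, against 484 and 175 in the controls. High and low libraries occurred in both groups, and the log2 fold change of 0.39 did not pass (adjusted p = 1, the authors' deposited table). Within a group, the libraries differed 3.58-fold after deletion, with a 95% interval from counting error of 3.06 to 4.20, and 2.76-fold in controls, from 2.32 to 3.30. The gene overlaps A430072P03Rik on the other strand, with authors' means of 29.9 after deletion and 20.2 in controls.

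The GATA genes were low and did not separate the groups. Gata2 (ENSMUSG00000015053, chromosome 6, 88193891 to 88207030), which acts in stem, mast and basophil cells, had 49.2 and 29.1 normalized reads in the Brg1-deleted libraries and 24.4 and 44.0 in the controls. Gata1 (ENSMUSG00000031162, chromosome X, 7959260 to 7978071), the erythroid and megakaryocyte factor, had 7 and 2 reads in the Brg1-deleted libraries and 5 and 5 in the controls. Their log2 fold changes were 0.20 and -0.24, and neither passed (adjusted p = 1 for each, the authors' deposited table). Pooled over libraries, the ratio of Gata1 reads in Brg1-deleted over control cells was 0.903 with a counting interval of 0.325 to 2.47, so that no difference was detectable at this depth.

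The stem cell genes did not separate the groups either. Meis1 (ENSMUSG00000020160, chromosome 11, 18880428 to 19018969) was the steadiest of the 10, with 51.8 and 58.1 normalized reads in the Brg1-deleted libraries and 65.3 and 52.0 in the controls. Its log2 fold change was -0.09 (adjusted p = 1, the authors' deposited table), and the counting interval of the pooled ratio ran from 0.709 to 1.21. Hoxa9 (ENSMUSG00000038227, chromosome 6, 52223097 to 52231089) had 1 and 6 reads in the Brg1-deleted libraries and 6 and 3 in the controls. The counting interval of its pooled ratio ran from 0.247 to 2.36, too wide to show that the groups are close.

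Flt3 (ENSMUSG00000042817, chromosome 5, 147330741 to 147400489) had 41.5 and 22.1 normalized reads in the Brg1-deleted libraries, against 27.3 and 41.0 in the controls. The 2 ranges nearly coincide, and the log2 fold change of -0.10 did not pass (adjusted p = 1, the authors' deposited table).

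In 7 of the 10 regulators, the 2 libraries of each group differed by a larger ratio than the group means did, against 33.5% of all 16837 genes. The exceptions were Cebpa, Cebpe and Gata1. Leaving out 1 library turned the sign of the limma difference in 7 of the 10 at least once, and Spi1, Cebpa and Cebpe kept theirs. The median absolute log2 ratio between the libraries of a group was 1.25 after deletion and 0.85 in controls for the regulators, against 0.42 and 0.40 for all genes. This background mixes levels. Genes with a mean of 1 to 10, as in Cebpe, Gata1 and Hoxa9, had medians of 1.05 after deletion and 1.10 in controls. Genes with a mean of at least 10 had 0.321 and 0.301.

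In each regulator, the high values of the groups were crossed between the deeper and the shallower library. Spi1, Cebpa, Cebpb, Gata1, Gata2 and Flt3 were higher in the deeper Brg1-deleted and the shallower control library, with 5 reads in each control for Gata1, while Gfi1, Cebpe, Hoxa9 and Meis1 were higher in the other library of each group. Of all 16837 genes, 68.8% also had their high values crossed in this way, so the crossing itself is not particular to the regulators. For Gata1, Hoxa9 and Meis1, the counting interval of the ratio between libraries reached below 1 in both groups. It also did so after deletion for Cebpe and in controls for Flt3, so the orders of these genes are not resolved. Summed macrophage and monocyte markers came to 1624 and 387 normalized reads in the Brg1-deleted libraries, deeper first, and to 480 and 2037 in the controls. Mast and basophil markers moved the same way, with 781 and 270 after deletion and 254 and 764 in controls. Neutrophil markers went the other way, with 93.3 and 545 after deletion and 738 and 183 in controls, and eosinophil markers likewise, with 6.91 and 109 after deletion and 110 and 18.0 in controls. Dendritic markers, with 505 and 255 after deletion and 248 and 481 in controls, had sums ordered like those of the macrophage markers. Erythroid and megakaryocyte markers, with 243 and 149 after deletion and 128 and 236 in controls, had that order through Pf4. Itga2b, the other marker of like level in that list, had the opposite order. T and NK markers summed to 106 and 116 after deletion and 235 and 265 in controls, a difference that lay mostly in Lck, a kinase of T cells. Lck fell to 57.0 and 68.6 normalized reads after deletion, against 199 and 191 in controls (adjusted p = 0.0236, the authors' deposited table). The other 8 listed markers summed to 49.2 and 47.7 after deletion and 36.1 and 74.1 in controls, which overlap. Among these 8, Nkg7 had 3.46 and 2.33 normalized reads after deletion and 19.5 and 19.0 in controls (adjusted p = 0.420, the authors' deposited table). Klrb1c and Cd4 had higher means after deletion, and the rest lower means.

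Single markers followed the sum of their list in most of the myeloid lists. The order of the macrophage sum, high in the deeper Brg1-deleted and the shallower control library, was met in 9 of 10 macrophage, 7 of 8 mast and basophil, 5 of 8 dendritic, 3 of 7 erythroid and megakaryocyte, 1 of 8 neutrophil and 0 of 6 eosinophil markers. The opposite order was met in 6 of the 8 listed neutrophil markers and in all 6 eosinophil markers. Of all 16837 genes, 5804 had the order of the macrophage sum and 5783 the opposite order. Against this, 3 of 7 is near the background and 5 of 8 rests on few genes, and no list was tested. Among the eosinophil markers, Ear1 and Ear6 reached at most 1.16 and 2.93 normalized reads in a library. The control libraries of Prg3 were nearly equal, so the order of these 3 genes is not resolved.

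Csf1r, the receptor of a macrophage growth factor and itself a target of PU.1, was the highest macrophage marker, with 683 and 186 normalized reads after deletion and 259 and 913 in controls. Cd68, a lysosomal protein gene and the next in level, had 314 and 77.9 after deletion and 80.0 and 340 in controls. The mast cell protease genes Cpa3 and Tpsb2, the highest of their list, had the same order, Cpa3 with 266 and 82.6 normalized reads after deletion and 100.4 and 252 in controls, and Tpsb2 with 242 and 66.3 after deletion and 44.9 and 201 in controls. All 4 genes had their high library in common with Spi1.

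Of the neutrophil list, S100a8 and S100a9, the subunits of calprotectin, had the highest means over the groups. S100a8 had 0.864 and 134 normalized reads after deletion and 208 and 13.0 in controls, and S100a9 had 0.864 and 134 after deletion and 182 and 2.00 in controls. Both were thus high in the libraries in which Gfi1 was high. Mmp8, a collagenase gene, had the opposite order, with 66.5 and 50.0 normalized reads after deletion and 93.6 and 140 in controls, and the chemokine receptor gene Cxcr2 had little order, with 22.5 and 20.9 after deletion and 12.7 and 12.0 in controls. Prg2, a granule protein gene and the highest eosinophil marker, had 2.59 and 79.1 normalized reads after deletion and 73.1 and 3.00 in controls, and its relative Prg3 had 3.46 and 16.3 after deletion and 11.70 and 11.01 in controls.

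In the other lists the highest genes were less alike. The dendritic markers Bst2, with 330 and 157 normalized reads after deletion and 178 and 366 in controls, and Siglech, with 111 and 40.7 after deletion and 34.1 and 54.0 in controls, had the order of the macrophage sum. So had Pf4, a platelet chemokine gene, with 151 and 31.4 after deletion and 26.3 and 144 in controls, whereas Itga2b, a platelet integrin gene, had 79.5 and 108 after deletion and 90.7 and 81.1 in controls. Klrb1c, an NK receptor gene and the next after Lck, had 15.6 and 30.2 normalized reads after deletion and 5.85 and 2.00 in controls (adjusted p = 0.389, the authors' deposited table). The part of all these cells in the values of the regulators was not tested.

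**Figure D3:**
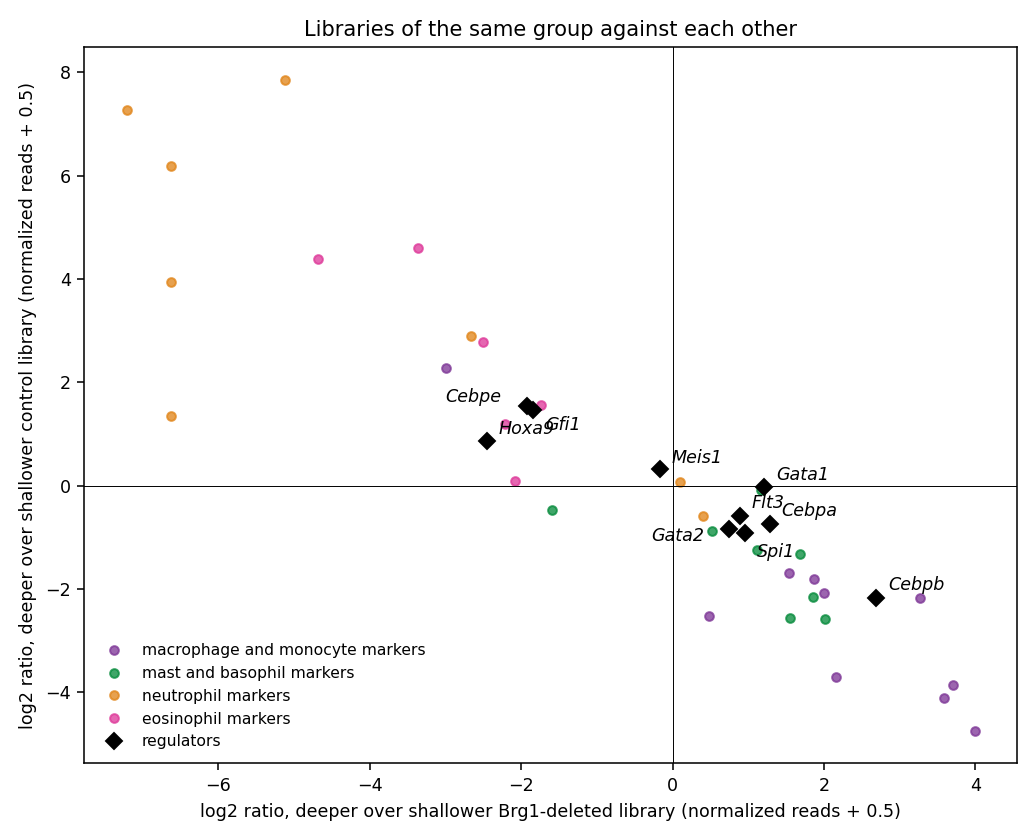
The log2 ratio of the deeper over the shallower library, for the Brg1-deleted group along the horizontal axis and for controls along the vertical, computed on normalized reads plus 0.5. Gfi1, Cebpe and Hoxa9 (diamonds) lie at the upper left with most neutrophil and eosinophil markers, and Cebpb, Cebpa, Spi1, Gata2 and Flt3 at the lower right with most macrophage and mast cell markers.

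When the libraries with like marker sums were set side by side, a pairing that the labels do not give, the regulators differed in how steady their ratios were. For Spi1 the deeper Brg1-deleted library over the shallower control gave a ratio of 1.50, with a counting interval of 1.38 to 1.62, and the shallower Brg1-deleted over the deeper control gave 1.46, from 1.30 to 1.64. Gfi1 had ratios of 1.08, from 0.882 to 1.33, and 1.40, from 1.24 to 1.58. In the order of the Spi1 ratios, Cebpa had 0.470 and 0.320, Cebpb 0.580 and 0.398, and Cebpe 0.173 and 0.298. The intervals of Cebpa and Cebpb stayed below 1, while the first of Cebpe, on 1 and 5 reads, ran from 0.00365 to 1.54. Both ratios were below 1 in 4 regulators, the 3 C/EBP genes and Meis1, and above 1 in 3, Spi1, Gfi1 and Gata2. Of all genes, 34.2% were below 1 in both and 35.7% above 1 in both, so these counts are near the background, and no test was made on a pairing chosen in this way. Both intervals of Meis1 and of Gata2 included 1, the first ratio of Meis1 being 0.996. The pairing follows marker sums whose order Spi1 shared, so the likeness of its ratios is partly built in.

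Knockdown of Brg1 in Rag1-null cells also changed none of the 10 regulators in the authors' deposited table, where 0.218% of 19719 genes were called (0.177% higher and 0.0406% lower), and 0 of 10 passed an unadjusted p of 0.05, against 2.74% of all genes. The median log2 fold change of the 10 was -0.06, with 5 above 0 and 5 below. Spi1 had authors' means of 439 normalized reads with the Brg1 shRNA and 477 with the control shRNA, and Gfi1 had 143 with the Brg1 shRNA and 156 with the control shRNA, with log2 fold changes of -0.12 and -0.13 and an adjusted p of 1 for each in the authors' deposited table. Their values were too high to be split into libraries.

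Flt3 had the lowest p of the 10 on knockdown. It had 10, 10 and 2 reads in the deepest, the middle and the shallowest Brg1 shRNA library, against 18, 25 and 5 in the control shRNA libraries in the same order. In normalized reads these are 7.79, 8.75 and 2.07 with the Brg1 shRNA and 15.2, 23.6 and 8.53 with the control shRNA. The groups overlap only in the middle Brg1 shRNA library, which lies just above the shallowest control. The authors' means of 6.20 with the Brg1 shRNA and 15.8 with the control shRNA give a log2 fold change of -1.35 with a p of 0.0617 (adjusted p = 1, the authors' deposited table). The ratio of the pooled reads was 0.383 with a counting interval of 0.220 to 0.646, which leaves out the spread between libraries.

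The C/EBP genes were near the limit of detection in these cells. Cebpa had 7, 10 and 11 reads with the Brg1 shRNA and 6, 6 and 8 with the control shRNA, and Cebpb had 5, 10 and 9 with the Brg1 shRNA and 7, 6 and 1 with the control shRNA. Their log2 fold changes of 0.07 and 0.73 each did not pass (adjusted p = 1, the authors' deposited table), and neither had the sign it had on deletion, a difference between experiments that was not tested. Cebpe had 0, 1 and 0 reads with the Brg1 shRNA and 1 read in each control shRNA library, where a count of 0 in the deepest library allows up to 2.34 normalized reads.

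The GATA genes and Hoxa9 were also low on knockdown. Gata2 had 2, 5 and 5 reads with the Brg1 shRNA against 3, 4 and 0 with the control shRNA, Gata1 had 1, 3 and 1 with the Brg1 shRNA against 1, 2 and 1 with the control shRNA, and Hoxa9 had 2, 0 and 2 with the Brg1 shRNA against 2, 4 and 0 with the control shRNA. None of these separated the groups. Meis1 stood higher, at authors' means of 22.9 with the Brg1 shRNA and 22.4 with the control shRNA, where its 3 control libraries held 28, 30 and 9 reads. Among the 5315 resolved genes of the knockdown table, 9.71% had groups that did not overlap, and none of the 7 resolved regulators did. Macrophage and monocyte markers summed to 172 normalized reads with the Brg1 shRNA and 149 with the control shRNA, and neutrophil markers to 144 with the Brg1 shRNA and 165 with the control shRNA. Mast and basophil markers came to 77.0 with the Brg1 shRNA and 92.3 with the control shRNA, and the part of such cells in these values was not tested.

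Genes of like level, within 1.5-fold of each regulator, show the smallest change that was called there. It is not a limit of detection, since larger changes went uncalled. Among genes within 1.5-fold of Gfi1, Kit had a signed fold of -3.17 on deletion (adjusted p = 0.809, the authors' deposited table). Within 1.5-fold of Spi1, Mpo had -4.24 (adjusted p = 0.115, the authors' deposited table). On deletion, the smallest called change was 2.19-fold near the level of Spi1, 2.31-fold near Gfi1, 3.01-fold near Cebpa and 3.37-fold near Cebpb, where these 4 genes differed by 1.48-fold, 1.31-fold, 2.41-fold and 1.83-fold. Near Gata2 and Flt3 it was 4.31-fold and 4.83-fold. At the levels of Cebpe, Gata1 and Hoxa9, 0 of 1629, 0 of 1767 and 0 of 1772 genes were called, so that no size of change passed there. On knockdown, 2 of 1280 genes near the level of Flt3 were called, the smaller change being 8.68-fold, and near Spi1 the smallest was 2.30-fold.

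**Figure D4:**
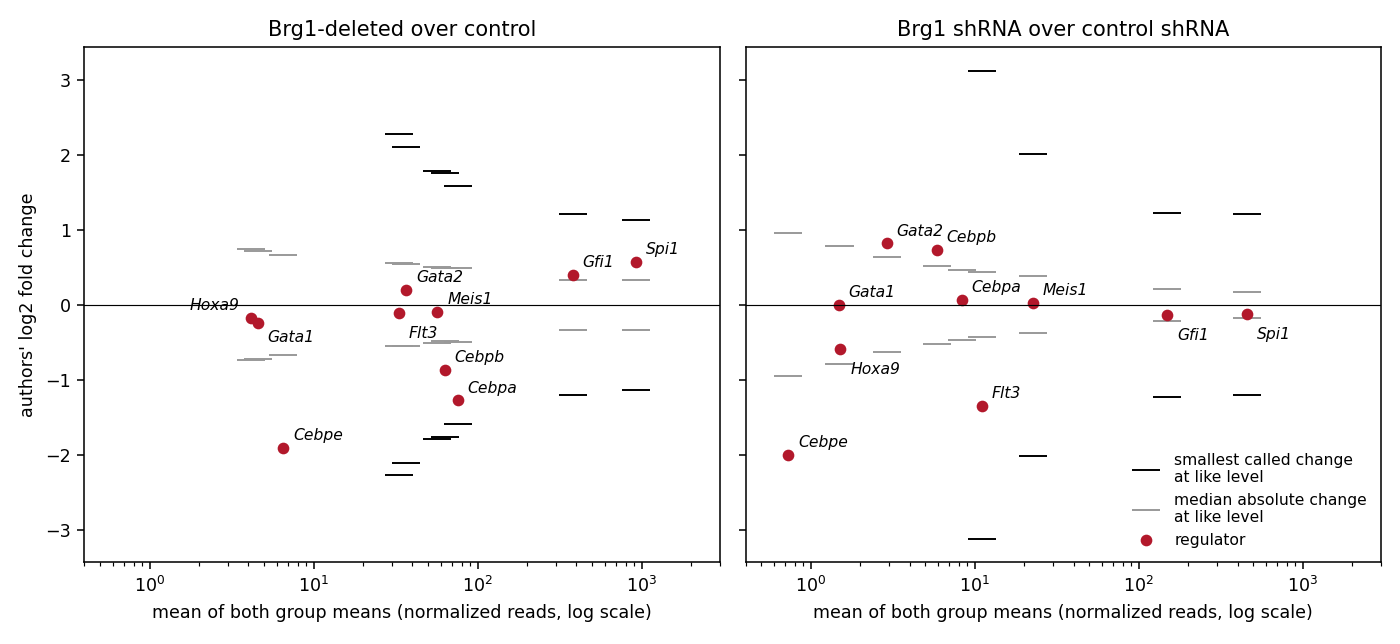
The authors' log2 fold change of each regulator (red) against the mean of its group means on a log axis, for deletion on the left and knockdown on the right. Black bars mark the smallest called change among genes of like level and grey bars the median absolute change there. No regulator reaches a black bar, and Cebpa on deletion, at -1.27, comes close to its bar at 1.59.

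Of 17 genes that PU.1 and C/EBP factors activate in myeloid cells, 4 were called on deletion, all lower, where 0.742% of all genes were called lower, and the other 13 did not pass. All 17 had a log2 fold change below 0, with a median of -0.56 against -0.0014 for all genes. The list was drawn up with earlier results of these data known, and 3 of the 4 were already known to be called. Prtn3, the neutrophil serine protease 3 gene, had 37.1 and 126 normalized reads in the Brg1-deleted libraries, deeper first, and 390 and 495 in the controls (adjusted p = 1.15e-06, the authors' deposited table). Ctsg, cathepsin G, had 15.6 and 54.7 in the Brg1-deleted libraries and 197 and 207 in the controls (adjusted p = 2.74e-05, the authors' deposited table). Both genes encode proteases of primary granules. Elane, neutrophil elastase, had 5.18 and 59.3 in the Brg1-deleted libraries and 278 and 169 in the controls (adjusted p = 0.015, the authors' deposited table). Ms4a3, a membrane protein gene of granulocyte and monocyte progenitors, had 5.18 and 10.5 in the Brg1-deleted libraries and 69.2 and 54.0 in the controls (adjusted p = 0.0058, the authors' deposited table). In these 4 genes both Brg1-deleted libraries lay below both controls. They were picked by their call on these same libraries, so such separation is nearly given. Of the 16837 genes with 1 solution and a mean of at least 1, 48.1% were separated in either direction. The peroxidase gene Mpo, at authors' means of 513 after deletion and 2177 in controls, did not pass (adjusted p = 0.115, the authors' deposited table).

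In each of the 4 called genes, which mark early granulocyte progenitors, the shallower Brg1-deleted library was the higher of its group, as for the summed neutrophil markers. In controls Elane and Ms4a3 were higher in the deeper library, like that sum, and Prtn3 and Ctsg in the shallower. The part of other cell types in these values was not tested. The other 13 genes of the list, among them Csf1r, the lysozyme gene Lyz2 and the receptor gene Csf3r, were not called. Lyz2 had 3335 and 1527 normalized reads after deletion against 2086 and 5288 in controls, which overlap and follow the macrophage markers. The integrin gene Itgam, the oxidase gene Cybb and the adaptor gene Tyrobp had log2 fold changes of -0.18, -0.27 and -0.31 (adjusted p = 1 for each, the authors' deposited table), and their libraries overlap between the groups. On knockdown none of the 17 was called, against 0.218% of all genes, and their median log2 fold change was 0.04.

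**Figure D5:**
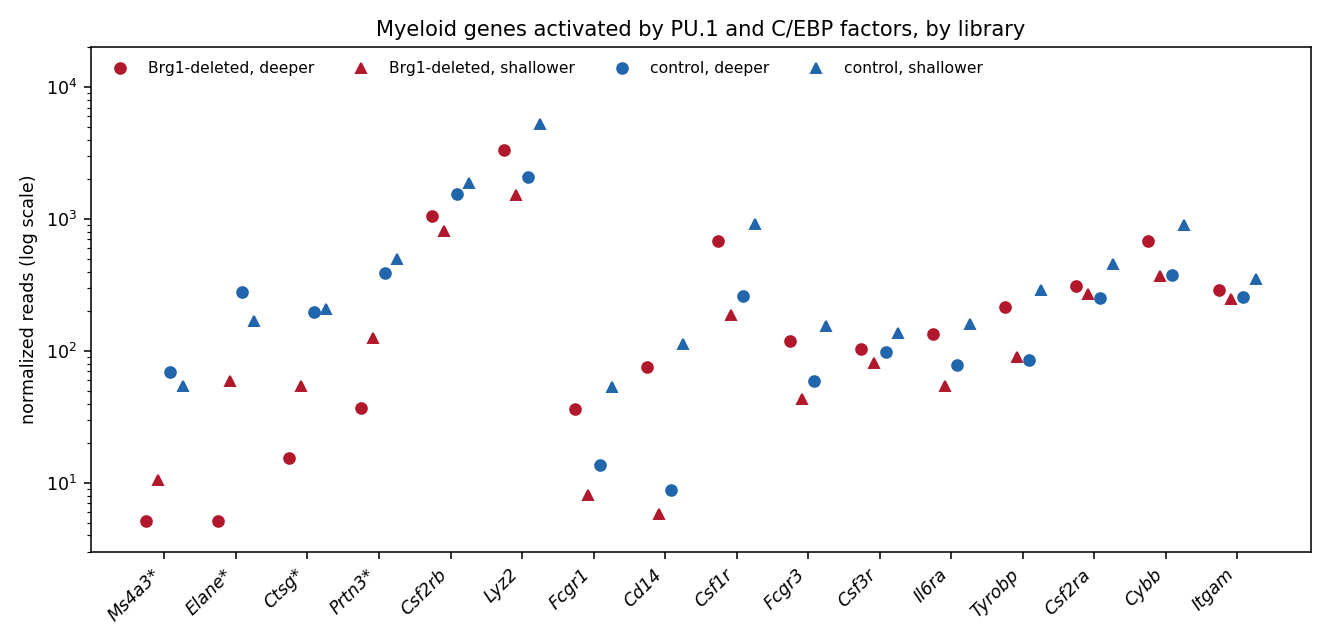
Normalized reads on a log axis for the 16 listed genes activated by PU.1 and C/EBP factors that could be split into libraries, ordered by log2 fold change, with an asterisk for the 4 called genes. In Ms4a3, Elane, Ctsg and Prtn3, called on these same libraries, the red points of both Brg1-deleted libraries lie below both blue points. In Cd14, Csf1r and Lyz2 the groups overlap.

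The promoters of these 4 genes are shown because they are the called genes of the list, from 250 bases before to 50 bases after the RefSeq start site (build GRCm38.p6, 5′ to 3′ on the strand of the gene). Capitals mark the letters GAGGAA, the core read by PU.1, and TTNNGNAA, a loose form of the C/EBP consensus, each searched on both strands.
Prtn3 (chr10:79879417-79879716, + strand): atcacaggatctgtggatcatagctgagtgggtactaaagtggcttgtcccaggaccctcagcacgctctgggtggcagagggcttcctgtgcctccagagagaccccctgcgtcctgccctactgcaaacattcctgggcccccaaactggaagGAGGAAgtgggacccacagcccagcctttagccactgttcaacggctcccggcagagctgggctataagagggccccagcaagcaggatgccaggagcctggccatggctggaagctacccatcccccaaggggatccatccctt
Ctsg (chr14:56102525-56102824, - strand): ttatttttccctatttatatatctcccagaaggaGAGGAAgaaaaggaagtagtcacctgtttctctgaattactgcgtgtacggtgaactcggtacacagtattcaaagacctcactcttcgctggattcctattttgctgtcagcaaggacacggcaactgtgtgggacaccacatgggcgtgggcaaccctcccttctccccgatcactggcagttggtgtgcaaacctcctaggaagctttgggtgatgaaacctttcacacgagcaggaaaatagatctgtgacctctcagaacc
Ms4a3 (chr19:11640802-11641101, - strand): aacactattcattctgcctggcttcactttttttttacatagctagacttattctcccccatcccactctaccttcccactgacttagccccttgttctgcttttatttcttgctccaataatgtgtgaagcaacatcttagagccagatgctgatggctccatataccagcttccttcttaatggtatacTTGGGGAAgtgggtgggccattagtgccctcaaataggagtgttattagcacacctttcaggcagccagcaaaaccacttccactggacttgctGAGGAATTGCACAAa
Elane (chr10:79886062-79886361, + strand): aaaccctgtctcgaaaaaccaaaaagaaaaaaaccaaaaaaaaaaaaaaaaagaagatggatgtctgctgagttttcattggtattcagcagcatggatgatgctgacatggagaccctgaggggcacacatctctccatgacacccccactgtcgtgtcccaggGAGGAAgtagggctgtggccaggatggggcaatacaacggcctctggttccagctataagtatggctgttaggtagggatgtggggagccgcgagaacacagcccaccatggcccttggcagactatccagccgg
All 4 windows hold GAGGAA, at -95 in Prtn3, -216 in Ctsg, 35 in Ms4a3 and -85 in Elane, counted from the start site to the first base of the match, and 28.3% of all 32851 promoter windows hold it. TTNNGNAA is found in 1 of the 4, Ms4a3, and in 40.7% of all windows, and 1 of its 2 matches there abuts the GAGGAA. Of the 10 regulators, 8 have a window in the table, of which 2, Gata1 and Hoxa9, hold GAGGAA and 3, Gfi1, Gata2 and Meis1, hold TTNNGNAA. These matches describe the letters alone, since no binding data were used.

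Other myeloid regulators were called once. Irf8, a factor that works with PU.1 in macrophages, dendritic cells and B cells, rose on deletion to an authors' mean of 6601, against 2730 in controls (adjusted p = 0.0153, the authors' deposited table). The 19 others of this list, including the C/EBP relatives Cebpd and Cebpg, were not called, where 0.732% of all genes were called higher, and the list median was -0.15. On knockdown none of the 20 was called, against 0.218% of all genes, though 18 had log2 fold changes above 0, with a median of 0.34. The closest to the threshold there was Maf, a macrophage and T cell factor, at authors' means of 81.4 with the Brg1 shRNA and 23.6 with the control shRNA (adjusted p = 0.446, the authors' deposited table).

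Of 25 other stem and progenitor regulators, none was called in either comparison, with medians of 0.04 on deletion and 0.13 on knockdown, where 24 were listed. With 1.47% of all genes called on deletion and 0.218% on knockdown, a list of this size with no call is near the background. Erg, an ETS factor of stem cells, came closest on deletion, with 1146 and 1406 normalized reads in the Brg1-deleted libraries and 2322 and 2689 in the controls (adjusted p = 0.139, the authors' deposited table). Gfi1b, the paralogue of Gfi1 in red cells and platelets, had 79.5 and 128 normalized reads after deletion and 22.4 and 52.0 in controls (adjusted p = 0.381, the authors' deposited table). Kit, the receptor for the SCF in the medium, was closest on knockdown, with authors' means of 67.2 with the Brg1 shRNA and 154 with the control shRNA (adjusted p = 0.086, the authors' deposited table). Its deletion values were 105 and 197 normalized reads in the Brg1-deleted libraries and 676 and 280 in the controls (adjusted p = 0.809, the authors' deposited table).

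Flt3l, the gene of the Flt3 ligand, was called on deletion while the receptor was not. It had 352 and 260 normalized reads in the Brg1-deleted libraries and 85.8 and 147 in the controls, a rise of 1.40 on the log2 scale (adjusted p = 0.0326, the authors' deposited table). Both Brg1-deleted libraries lay above both controls, as is likely for a gene called on these same libraries. The other 10 genes of the Flt3 ligand and signalling partners, among them Stat5a, Stat5b and Grb2, were not called, and none of the 11 was called on knockdown. Of the erythroid, megakaryocyte and mast cell genes activated by GATA factors, 14 of 18 were listed on deletion and 12 on knockdown, with none called and medians of 0.04 and 0.49. Over all genes, 1.47% were called on deletion and 0.218% on knockdown, so lists of this size with no call are near the background.

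By the distance between the pairs of log2 fold changes in both experiments, among 35 genes of the lists with a mean of at least 100 in every group, the gene nearest to Spi1 was Myb, a progenitor factor, at a distance of 0.312. The gene nearest to Gfi1 was the kinase gene Pim2 at 0.250. Each pair had opposite signs on knockdown, with log2 fold changes of -0.12 for Spi1 and 0.18 for Myb, and of -0.13 for Gfi1 and 0.11 for Pim2. The other 8 regulators were below that level in at least 1 group and were not compared in this way.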

How the data were processed

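Polyadenylated RNA was sequenced after dUTP strand marking, per the labels' protocols, and CASAVA, RSEM, DESeq and the mm10 build are named in the submitters' processing notes without versions. The 16 samples of chromatin accessibility and binding were not used here. The authors deposited 1 mean per group and gene, a signal in normalized reads. They also deposited, per the file headers, a log2 fold change, a signed linear fold kept as a score, a p-value, its Benjamini-Hochberg adjustment and the exon length used for TPM. Calls are theirs at an adjusted p of 0.05, as planned for the case that only group means were given. The count models planned for given counts per sample were not run on the recovered reads.

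Each mean is a sum of whole reads times 1 step per library. With steps found from the lowest values, 100% of values were whole within 5.1e-05, where 2.05% and 1.70% of random values up to 100 were, and 18415 of 19404 genes (94.9%) had 1 solution in both groups on deletion. For 3 libraries, values up to 25 were tried. limma 3.58.1 (R 4.3.3) was run with a trend on log2 of reads plus 0.5 over the size factor, for means of at least 1. Recovery and limma were also run on simulated data with planted changes. The spread between simulated libraries was set and not taken from these data, so that run does not show how many changes limma can find here. Intervals are 95% exact binomial and cover counting error only, and a count of 0 allows up to 3 counts. Other steps used Python 3.11.15 with matplotlib 3.10.9, scipy 1.17.1, pandas 2.3.3 and numpy 2.4.6.

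The regulators, the 5 other gene lists and 8 marker lists were chosen with earlier results of these data known. Named were the regulators, up to 4 genes a list by adjusted p in each comparison, every called gene of these lists, the 2 markers of each list with the highest mean over groups and the nearest gene by fold changes. Examples outside this rule, such as Lyz2, Csf3r, Itgam, Mmp8, Cxcr2 and Stat5a, were chosen after their values were seen. The authors mark 5 of the 10 regulators, and 47.1% and 47.3% of genes, as confounded, a mark no source used here defines.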

Additional observations from a re-analysis of the deposited data

How the results depend on the processing

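In 19 alternative settings the count of regulators called kept its value of 0, with 0 also at an adjusted p of 0.1, over protein-coding genes, after a filter at a mean of 10, and in limma with either scaling. In 5 of the 7 limma settings no gene at all was called, so a count of 0 there says nothing about stability. Leaving out 1 library moved the limma log2 fold changes on deletion through 0 for 7 of the 10. They ranged from 0.083 to 1.04 for Spi1, -1.99 to -0.71 for Cebpa, -2.37 to 0.31 for Cebpb and -2.86 to -0.85 for Cebpe. For Gfi1 they ranged from -0.62 to 1.22, for Gata1 from -0.90 to 0.25, for Gata2 from -0.21 to 0.63, for Meis1 from -0.25 to 0.077, for Hoxa9 from -1.86 to 0.68 and for Flt3 from -0.58 to 0.30. On knockdown, leaving out 1 library, an alternative added after the data were examined and computed with 0.5 added to each mean, gave -1.58 to -0.88 for Flt3, -0.18 to 0.62 for Cebpa, 0.32 to 0.95 for Cebpb, -1.74 to -0.82 for Cebpe, -0.49 to 0.24 for Gata1, 0.20 to 1.25 for Gata2 and -0.92 to 0.35 for Hoxa9. A pseudocount of 5 put Cebpe on knockdown at -0.22, against -2.00, which follows from its authors' means of 0.292 with the Brg1 shRNA and 1.16 with the control shRNA. Over all genes, limma called 37 without the shallower control library, 1 without the deeper control and 0 without either Brg1-deleted library, where the lone library is assumed to vary like the other group. No paired analysis was possible because the columns carry no replicate numbers.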
